A study of Homo sapiens with 18 samples.

Results

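RNA from LNCaP cells in which PARP2 had been targeted by siRNA was compared with RNA from LNCaP cells in which PARP1 had been targeted, in both cases 72 h after transfection. The genes described here are those whose 4 siPARP2 values all lay beyond all 4 siPARP1 values. By that rule 1498 genes (11.8%) were higher and 1305 (10.3%) lower with siPARP2, of 12701 genes tested. LNCaP is a human prostate cancer cell line of luminal type that depends on androgen signalling. It was cultured in serum-containing RPMI 1640. Cells with siPARP2_A or siPARP2_B, siRNAs of different sequence against the same target, were set against cells with siPARP1_A or siPARP1_B. Each of these 4 groups held 2 libraries, so that 8 of the 18 libraries of the series entered the comparison. A further 2 libraries from cells with the control siRNA siNC served to place each target's level. The other 8 libraries came from LNCaP cells treated for 24 h with 10 uM UPF1069, 10 uM olaparib, 10 uM veliparib or the vehicle DMSO. The labels name no other change to the cells, and each target is represented by only 2 sequences in 1 cell line.

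PARP1 and PARP2 are nuclear enzymes that bind broken DNA and use NAD to attach chains of ADP-ribose to themselves and to nearby proteins, which recruits repair factors and loosens chromatin. PARP1 carries most of this activity, and PARP2 covers part of it when PARP1 is missing. In prostate cells androgen acts through a hormone-activated transcription factor that binds, with the pioneer factor FOXA1, near genes such as KLK3, KLK2, TMPRSS2 and FKBP5. The comparison of the targets addresses whether loss of PARP2 and loss of PARP1 leave different transcriptomes, the androgen program included.

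Levels are the deposited normalised values on the scale of RPM (nRPM), and fold changes are log2(value + 1) differences of siPARP2 minus siPARP1, with each target the mean of its sequences. The 10 siRNA libraries held 15.45 to 18.62 M reads, so that 3 reads, the limit that a count of 0 allows, corresponded to 0.169 to 0.207 nRPM. Libraries of 1 sequence resembled each other closely across genes (Pearson r of log2 values 0.996 or 0.997). The siPARP2_B libraries stood apart from the others: their highest r with a library of another group was 0.943, against 0.974 to 0.985 for the other 8 siRNA libraries. Gene values that turned or moved by over 1.5 times without a sequence are therefore also given without it, and lists with a median are given without each sequence. The summed level of 13 luminal markers ranged over 2950 to 4070 nRPM with siPARP2, against 4330 to 6710 with siPARP1 and 7430 to 7780 with siNC. Few markers of other cell types passed the filter on low values: 1 of 8 basal, 2 of 10 neuroendocrine, 4 of 9 stromal and 1 of 9 immune or endothelial markers. The basal markers KRT5 and TP63 and the neuroendocrine marker CHGA carried no value in the siRNA table. In RNA from whole cultures, fewer cells of a kind and less RNA per cell cannot be told apart.

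The targeted transcripts differed as labelled. PARP1 had 409 and 395 with siPARP2_A and 160.5 and 145 with siPARP2_B, against 4.78 and 5.67 with siPARP1_A and 8.99 and 9.05 with siPARP1_B. It had 452 and 479 with siNC, so the siPARP2_A libraries lay near the control and the siPARP2_B libraries lay below it. The PARP1 difference between the targets was 4.98 ± 0.05 (SE, limma adjusted p = 1.62e-28). Against siNC, PARP1 differed by -1.60 (adjusted p = 7.66e-16) with siPARP2_B and by -0.21 (adjusted p = 0.0194) with siPARP2_A, on the log2 scale. PARP2 had 3.06 and 2.56 with siPARP2_A and 1.78 and 1.01 with siPARP2_B, against 22.1 and 20.9 with siPARP1_A and 19.9 and 18 with siPARP1_B. It had 29 and 25.8 with siNC, and the siPARP2 and siPARP1 values did not overlap. The PARP2 difference was -2.82 ± 0.10 (SE, limma adjusted p = 6.45e-18). The siPARP2_B libraries carried less of both transcripts, and the siPARP1 libraries lay slightly below siNC in PARP2, by -0.42 (adjusted p = 0.00496) over both sequences. Leaving out siPARP2_B left differences of 5.67 (adjusted p = 7.66e-34) for PARP1 and -2.48 (adjusted p = 1.96e-19) for PARP2.

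**Figure D1:**
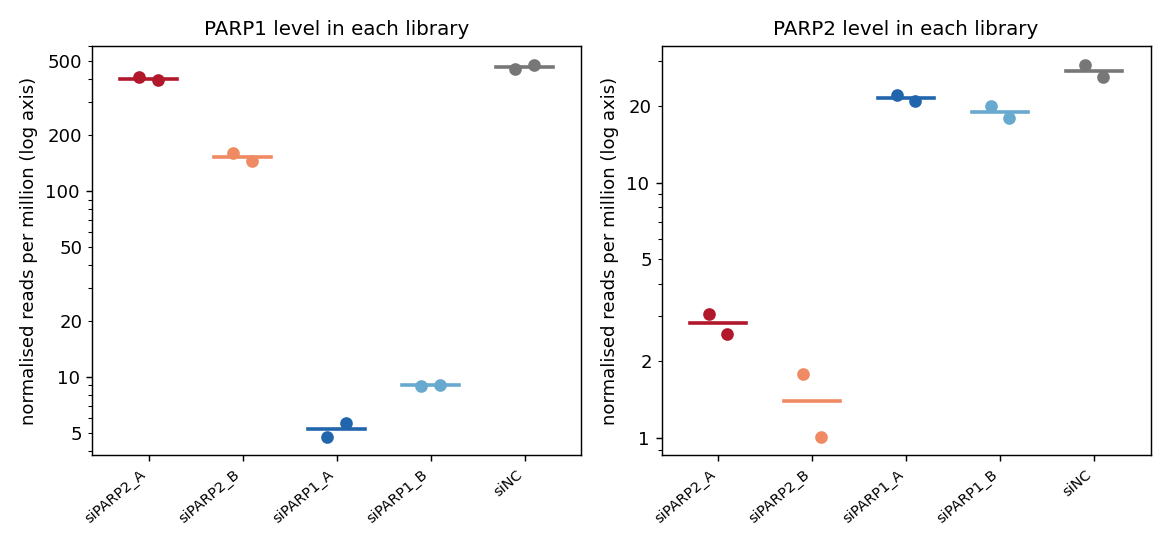
Level of PARP1 (left) and PARP2 (right) in nRPM on a log axis in each of the 10 siRNA libraries; points are libraries and lines their mean. PARP1 is low with both siPARP1 sequences, intermediate with siPARP2_B and near the control with siPARP2_A, and PARP2 is low with both siPARP2 sequences.

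Across the genome the targets differed widely, and so did the sequences of a target. With limma on all 5 siRNA groups, 4234 genes (33.3%) were higher and 4090 (32.2%) lower with siPARP2 than with siPARP1 at an adjusted p under 0.05, together 65.5% of the genes. The libraries of siPARP2_A and siPARP2_B, which share a target, differed in 8235 genes (64.8%), and those of siPARP1_A and siPARP1_B in 6965 (54.8%). Set against siPARP1_A, siPARP2_A differed in 6940 genes (54.6%) and siPARP2_B in 8706 (68.5%). Set against siPARP1_B, siPARP2_A differed in 6729 genes (53%) and siPARP2_B in 8727 (68.7%). The median absolute log2 difference was 0.254 between the targets, 0.351 between the siPARP2 sequences and 0.272 between the siPARP1 sequences. The p-values of this fit measure the spread between libraries of 1 sequence and not the spread between sequences. When target alone was the group, so that the sequences entered the error, 762 genes (6%) were higher and 745 (5.87%) lower. With the sequence as a random block 5 genes (0.0394%) were higher and 14 (0.11%) lower. There 1330 of the 12701 genes had an unadjusted p under 0.05. Of all genes, 35.6% were called higher and 35.8% lower without siPARP2_A, and 30.3% and 24.8% without siPARP2_B. The shares were 31.9% and 30.5% without siPARP1_A, and 30.7% and 31.2% without siPARP1_B. List counts under these fits are to be read beside these shares.

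Of the genes without overlap, 1490 of the higher (11.7% of all tested) and 1285 of the lower (10.1%) also passed the limma test in that direction. A stricter set, called in the same direction in all 4 pairings of a siPARP2 with a siPARP1 sequence, held 829 higher genes (6.53%) and 742 lower genes (5.84%). At least a 2-fold difference in every pairing was seen for 12 higher (0.0945%) and 29 lower genes (0.228%). Genes without overlap had a median level of 51.4 nRPM when higher and 23 nRPM when lower, against 25.7 nRPM over all genes tested. At the edge of the rule, DRG1, a GTP-binding protein, was just inside with 108.8 to 139.5 nRPM with siPARP2 and 81.78 to 108.8 with siPARP1, a gap below the last digit given. ZBTB48, a telomere-binding zinc finger protein, was just outside with 10.52 to 14.37 nRPM with siPARP2 and 7.592 to 10.52 with siPARP1. At the filter on low values, ZNF648 (mean 1.001 nRPM) was kept and GYG2P1 (mean 0.9996) was not.

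**Figure D2:**
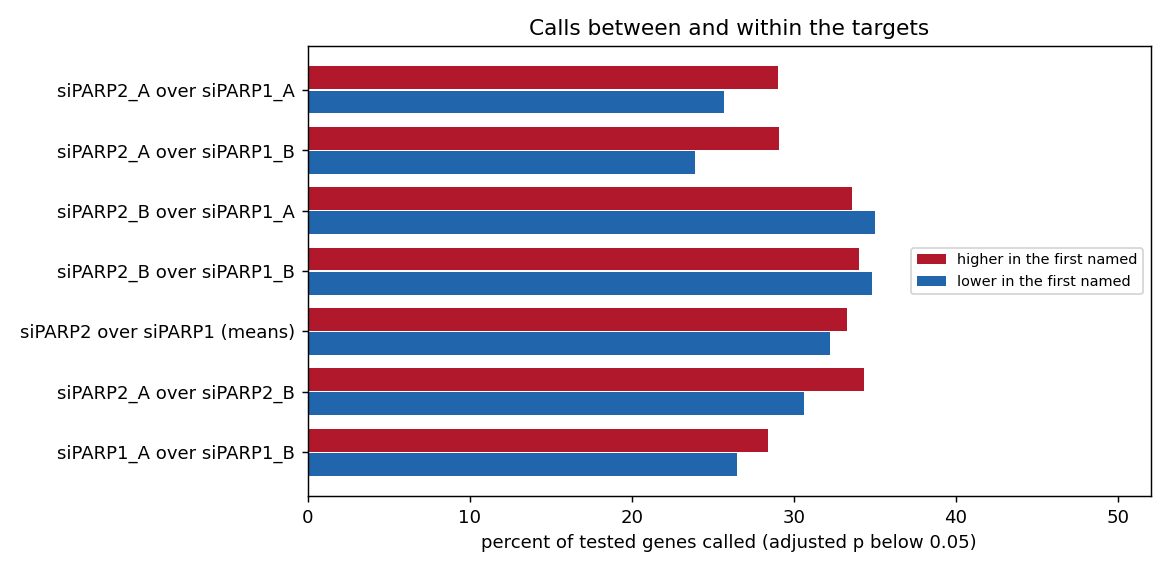
Percent of the 12701 tested genes called higher (red) and lower (blue) at an adjusted p under 0.05 in each sequence pair, between the target means, and between the sequences of a target. The bars for sequences of a target (64.8% called for siPARP2, 54.8% for siPARP1) are about as long as those between targets.

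Among the 5 higher and 14 lower genes that passed with the sequence as a random block were both targets. In the others the mean difference between targets exceeded that between the sequences of a target. KLK2 sequences still differed by 1.289 (siPARP2_A over siPARP2_B) and -1.395 (siPARP1_A over siPARP1_B), more than siPARP2_A from siPARP1_A (-0.96). Those of these genes outside the ranking are named here after their values were seen. TNFRSF12A, the receptor of the cytokine TWEAK, had 27.5 and 29.3 with siPARP2_A and 54.8 and 61.4 with siPARP2_B, against 7.98 and 8.41 with siPARP1_A and 6.86 and 6.36 with siPARP1_B. All 4 siPARP2 values lay above all siPARP1 values and above the control, which had 9.15 and 10.8. Its difference was 2.32 ± 0.07 (SE, limma adjusted p = 1.67e-18). With the sequence as a random block its adjusted p was 0.0101. CARNMT1, a carnosine methyltransferase, had 116.5 and 107 with siPARP2_A and 72 and 71 with siPARP2_B, against 30.8 and 30 with siPARP1_A and 21.8 and 24.2 with siPARP1_B. Its control level lay between the targets, with 59.4 and 58.3. VPS4B, an ATPase of the membrane-remodelling ESCRT machinery, had 81.5 and 79.8 with siPARP2_A and 128 and 132 with siPARP2_B, against 38.3 and 39 with siPARP1_A and 35.8 and 37.2 with siPARP1_B. The control lay near the siPARP1 values, with 32.1 and 33.7. MAPK14, the stress kinase p38 alpha, had 77.1 and 75.5 with siPARP2_A and 85 and 85.4 with siPARP2_B, against 30.8 and 31.9 with siPARP1_A and 37.1 and 37.6 with siPARP1_B. Here the control lay near the siPARP2 values, with 86.2 and 87.5. The differences were 1.72 for CARNMT1, 1.42 for VPS4B and 1.21 for MAPK14, with limma adjusted p of 0.0101 for CARNMT1 and 0.0141 for the other genes under the random block.

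On the lower side, SOCS2, a feedback inhibitor of growth hormone and STAT5 signalling, had 20.1 and 22.1 with siPARP2_A and 21.1 and 18.9 with siPARP2_B, against 87 and 95.9 with siPARP1_A and 111 and 107 with siPARP1_B. The siPARP2 sequences were nearly level and lay below the control, which had 57.9 and 57.2, while the siPARP1 values lay above it. The difference was -2.23 ± 0.05 (SE, limma adjusted p = 1.11e-20) and the adjusted p under the random block was 0.000719. CCDC141, a coiled-coil protein, had 5.99 and 5.07 with siPARP2_A and 6.66 and 6.14 with siPARP2_B, against 35.2 and 30.5 with siPARP1_A and 32 and 36.7 with siPARP1_B. Its control level of 25.4 and 25.2 was nearer to siPARP1, and the difference was -2.31 ± 0.08 (SE, limma adjusted p = 2.78e-18). KCNMA1, the pore subunit of the BK potassium channel, had 59.8 and 60 with siPARP2_A and 60.9 and 59.6 with siPARP2_B, against 180.1 and 178 with siPARP1_A and 145 and 166 with siPARP1_B. GUCY1A3, a subunit of soluble guanylate cyclase, had 177 and 179 with siPARP2_A and 179.8 and 176 with siPARP2_B, against 501 and 491 with siPARP1_A and 361 and 398 with siPARP1_B. In both genes the siPARP2 sequences were level and less than the lowest siPARP1 value by more than the siPARP1 sequences differed from each other. IDH1, the cytosolic isocitrate dehydrogenase that makes NADPH, had 692 and 710.5 with siPARP2_A and 482 and 473 with siPARP2_B, against 1257 and 1322 with siPARP1_A and 1506 and 1534 with siPARP1_B. RAB27A, a GTPase of secretory vesicles, had 26.7 and 26.2 with siPARP2_A and 19.4 and 17.1 with siPARP2_B, against 59.8 and 62.8 with siPARP1_A and 90.9 and 92 with siPARP1_B. CADPS2, a factor of dense-core vesicle release, had 7.83 and 8.0 with siPARP2_A and 7.49 and 7.21 with siPARP2_B, against 25.5 and 24.8 with siPARP1_A and 22.6 and 24.2 with siPARP1_B. In IDH1 and RAB27A the sequences of each target also differed from each other, and in CADPS2 they were close. The differences of the remaining lower genes were -1.93 for the nuclease DNASE2B, -1.98 for the axonemal dynein DNAH5, -1.99 for the defensin DEFB132, -1.60 for the ephrin EFNA5, -2.30 for KLK2 and -1.27 for ELOVL5.

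**Figure D3:**
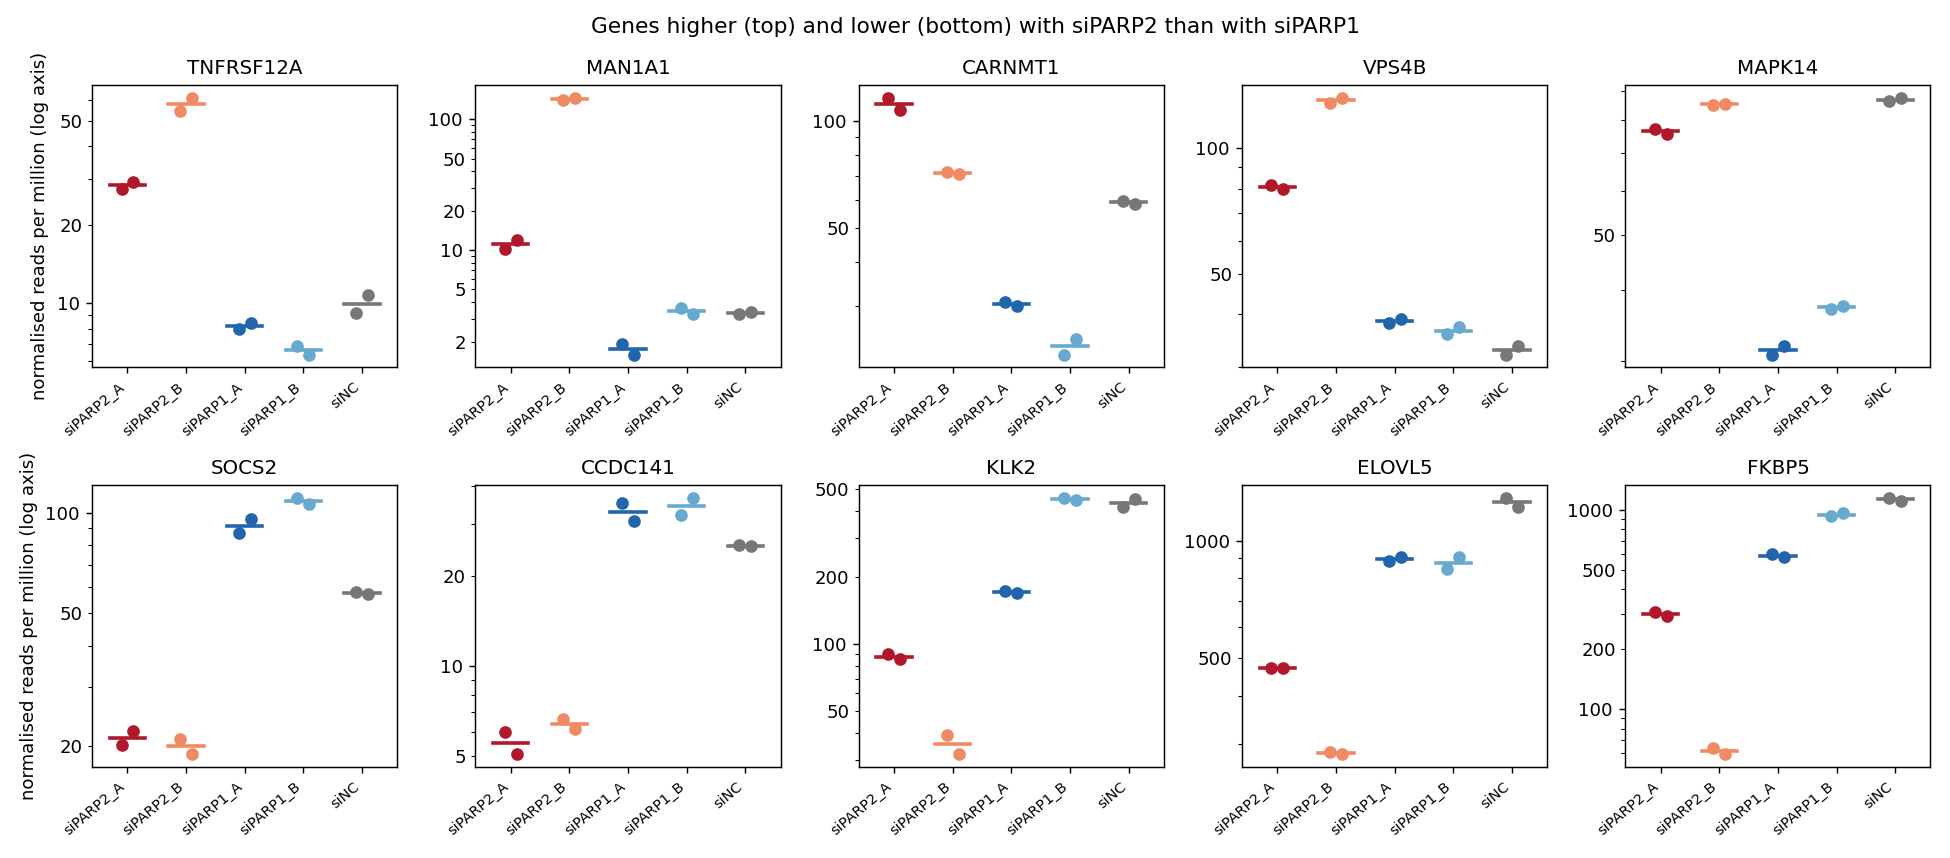
Level in nRPM (log axis, a scale for each panel) of 5 genes higher (top) and 5 lower (bottom) with siPARP2; points are libraries and lines the mean of each group. In all 10 panels the 4 siPARP2 values lie beyond the 4 siPARP1 values, and MAN1A1 and FKBP5 also differ widely between siPARP2_A and siPARP2_B.

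Beyond PARP1, the largest increases among genes called in all 4 pairings were in MAN1A1, TUBA1A and AP1M2. MAN1A1, a Golgi mannosidase that trims N-linked glycans, had 10.2 and 11.9 with siPARP2_A and 139 and 145 with siPARP2_B, against 1.94 and 1.59 with siPARP1_A and 3.6 and 3.25 with siPARP1_B. The siPARP2_B values stood far above all others, siNC included (3.25 and 3.39). Its difference was 3.57 ± 0.09 (SE, limma adjusted p = 9.37e-21), or 5.36 without siPARP2_A and 1.78 without siPARP2_B. TUBA1A, an alpha-tubulin whose reads can be shared with its close paralogs, had 43.1 and 49.6 with siPARP2_A and 217 and 211 with siPARP2_B, against 3.51 and 2.99 with siPARP1_A and 30 and 33 with siPARP1_B. The siPARP1_A values were the lowest, and the control (101 and 95.9) lay between the siPARP2 sequences. Its difference was 3.10 (adjusted p = 5.9e-23), or 2.01 without siPARP2_B and 1.64 without siPARP1_A. AP1M2, a subunit of the clathrin adaptor AP-1 in epithelia, had 163 and 179 with siPARP2_A and 197 and 228 with siPARP2_B, against 3.45 and 3.44 with siPARP1_A and 149.8 and 146 with siPARP1_B. Its siPARP1_A values were far below all others, while siPARP1_B lay just below siPARP2. The AP1M2 difference was 2.90 (adjusted p = 8.58e-24), or 0.37 without siPARP1_A and 5.43 without siPARP1_B. SIPA1L2, a GTPase-activating protein for Rap, had 12.1 and 13.5 with siPARP2_A and 106 and 107 with siPARP2_B, against 6.71 and 6.56 with siPARP1_A and 4.13 and 3.8 with siPARP1_B. Its increase was far larger with siPARP2_B, and its difference was 2.65 (adjusted p = 4.68e-19), or 4.13 without siPARP2_A and 1.16 without siPARP2_B. IL36RN, the antagonist of the interleukin-36 receptor, had 10.9 and 10.2 with siPARP2_A and 10.7 and 9.8 with siPARP2_B, against 1.63 and 1.02 with siPARP1_A and 2.93 and 2.0 with siPARP1_B. Its siPARP2 sequences were level, and its difference was 2.02 ± 0.11 (SE, limma adjusted p = 3.3e-14). PPP1R14C, an inhibitor of protein phosphatase 1, had 9.79 and 8.75 with siPARP2_A and 15 and 16.3 with siPARP2_B, against 0.605 and 0.573 with siPARP1_A and 3.8 and 3.59 with siPARP1_B, a difference of 2.26 (adjusted p = 6.45e-16), or 1.48 without siPARP1_A. The other higher genes named by rank were MMD, a progestin and adipoQ receptor family member (2.13, 1.29 without siPARP2_B), the ceramide kinase CERK (2.12, 1.34 without siPARP2_B), the ubiquitin ligase adaptor KLHL13 (2.02, 1.14 without siPARP2_B), the death receptor TNFRSF21 (1.96, 1.0 without siPARP2_B), the mannosyltransferase TMTC3 (1.96) and the retinol dehydrogenase RDH10 (1.96, 3.33 without siPARP2_A, 0.58 without siPARP2_B), while ISG15 is described with its group.

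Among the lower genes, MAK, a protein kinase first described in male germ cells, had 4.83 and 2.88 with siPARP2_A and 0.892 and 0.789 with siPARP2_B, against 18 and 20.7 with siPARP1_A and 11.9 and 13 with siPARP1_B. The siPARP1 values lay near or above the control (13.6 and 11.8) and the siPARP2 values below it. Its difference was -2.48 ± 0.11 (SE, limma adjusted p = 7.28e-16). NNT, the mitochondrial transhydrogenase that makes NADPH, had 2.81 and 2.56 with siPARP2_A and 1.67 and 1.13 with siPARP2_B, against 28.2 and 29.2 with siPARP1_A and 6.79 and 7.88 with siPARP1_B. Its control level (2.99 and 4.08) was near the siPARP2 values, and siPARP1_A was far above it, by 2.72 (adjusted p = 1.04e-13) on the log2 scale. The difference between the targets was -2.41 (adjusted p = 7.28e-16), or -1.49 without siPARP1_A. BRDT, a bromodomain protein of the testis, had 9.42 and 7.07 with siPARP2_A and 3.81 and 3.83 with siPARP2_B, against 46.4 and 46.4 with siPARP1_A and 15.5 and 16.2 with siPARP1_B. The siPARP1_A values stood out as high against a control of 11.3 and 9.59, and the difference was -2.09 (adjusted p = 1.75e-16), or -1.34 without siPARP1_A. THRSP, a regulator of lipid synthesis also called Spot 14, had 1.65 and 1.56 with siPARP2_A and 0.178 and 0.225 with siPARP2_B, against 8.83 and 8.41 with siPARP1_A and 5.06 and 5.6 with siPARP1_B. Its siPARP2_B values were near the limit of 3 reads, and its difference was -2.14 (adjusted p = 5.73e-15). SLC4A4, a bicarbonate cotransporter, had 55.3 and 57.8 with siPARP2_A and 10.5 and 10.1 with siPARP2_B, against 92.3 and 89.3 with siPARP1_A and 115 and 131 with siPARP1_B. The decrease was larger with siPARP2_B, and the difference was -2.06 (adjusted p = 1.21e-20), or -3.24 without siPARP2_A and -0.89 without siPARP2_B. Further lower genes by rank were the netrin NTNG1 (-2.04, -1.25 without siPARP2_B), the tubulin TUBA3D (-2.0, -1.29 without siPARP2_B), whose reads can be shared with a close copy, and FKBP5, KLK2, TOP2A and CENPF, which are described with their groups. The library kit in the labels does not record strand, so reads of MAN1A1, TNFRSF12A, ISG15, NNT, SOCS2, THRSP and PARP2 cannot be told apart from those of genes annotated on the opposite strand over their exons. Of the 171 genes named by the rule, 51 shared exon bases with another gene on either strand.

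The genes called between the targets and in all 4 pairings without overlap were limited to those with a symbol and a mean of at least 5 nRPM in the higher target. This left 803 genes higher and 638 lower with siPARP2. In 290 of these higher and 165 of these lower genes, siPARP2 and siPARP1 lay on opposite sides of siNC with both shifts called. Of all genes tested, 58.6% were called with siPARP2 and 46.6% with siPARP1 against siNC, and these comparisons share the siNC libraries. The share of all genes with opposite called shifts was not counted. The siNC mean lay outside the target means in 63.6% of all genes, and in 29.1% of the higher and 39.8% of the lower genes called in all 4 pairings. Genes chosen for a difference between targets more readily have siNC between them, so the counts are not read as an excess. MAN1A1 was 3.27 with siPARP2 and -0.31 with siPARP1 on the log2 scale, each against siNC. These are target means, and single sequences can differ from them. MAN1A1 was -0.65 with siPARP1_A but at the control level with siPARP1_B (0.03, limma adjusted p = 0.856). TNFRSF12A was 1.93 with siPARP2 and -0.39 with siPARP1. PPP1R14C was 0.95 with siPARP2 and -1.31 with siPARP1, and MMD was 1.01 with siPARP2 and -1.12 with siPARP1. With siPARP2_A alone MMD was not called (0.17, limma adjusted p = 0.152). In the other direction SOCS2 was -1.45 with siPARP2 and 0.78 with siPARP1, and THRSP was -1.54 with siPARP2 and 0.60 with siPARP1. With siPARP1_B alone THRSP was not called (0.295, limma adjusted p = 0.118). For NNT the shifts were -0.60 with siPARP2 and 1.80 with siPARP1, and siPARP2_A alone was not called (-0.29, limma adjusted p = 0.116). For genes lower without overlap as a set, the siNC level was nearer the siPARP1 level in 68.4%, against 59.2% of all genes tested. For genes higher without overlap that share was 59.3%.

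Genes that androgen raises were lower with siPARP2, with a negative median in every pairing of sequences. Of 54 such genes tested, 47 fell and 3 rose, beside 32.2% and 33.3% of all genes, and the median difference was -0.83 against 0.01 for all genes. The medians of the pairs were -0.35 for siPARP2_A over siPARP1_A, -1.11 for siPARP2_A over siPARP1_B, -0.58 for siPARP2_B over siPARP1_A and -1.38 for siPARP2_B over siPARP1_B. In 23 of the 54 the values did not overlap, all lower, beside 10.3% of all genes lower without overlap. In all 4 pairings 19 were called lower, beside 5.84% of all genes. FKBP5, a chaperone partner of steroid receptors, had 307 and 294 with siPARP2_A and 63.7 and 59.4 with siPARP2_B, against 599 and 577 with siPARP1_A and 932 and 965 with siPARP1_B. The control was highest, with 1154 and 1110.0. Its difference was -2.44 ± 0.04 (SE, limma adjusted p = 2.4e-24), or -1.31 without siPARP2_B. KLK2, a secreted serine protease of the prostate, had 90.1 and 85.6 with siPARP2_A and 39.1 and 31.9 with siPARP2_B, against 174 and 170.2 with siPARP1_A and 459 and 448 with siPARP1_B. Its difference was -2.30 ± 0.05 (SE, limma adjusted p = 1.11e-21). The control, with 418 and 452, was at the level of siPARP1_B. KLK3, which encodes prostate-specific antigen, had 504 and 503 with siPARP2_A and 198 and 171 with siPARP2_B, against 646 and 649 with siPARP1_A and 1165 and 1121 with siPARP1_B. Its difference was -1.5 ± 0.05 (SE, limma adjusted p = 4.46e-18), or -0.77 without siPARP2_B. In these 3 genes the order was the same: siPARP2_B lowest, then siPARP2_A, siPARP1_A and siPARP1_B. TMPRSS2, a membrane serine protease, overlapped between the targets. It had 275 and 279.9 with siPARP2_A and 157 and 147 with siPARP2_B, against 244 and 240.4 with siPARP1_A and 380.4 and 391 with siPARP1_B. The siPARP1_A level lay between those of the siPARP2 sequences, all were below siNC (810.4 and 864), and the difference was -0.57 (adjusted p = 3.22e-12), or -1.0 without siPARP2_A, -0.14 without siPARP2_B, -0.91 without siPARP1_A and -0.24 without siPARP1_B.

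The androgen-induced list kept its direction without each sequence. Without siPARP2_B it had 1 higher and 45 lower members and a median of -0.70, and without siPARP1_B 14 higher and 34 lower members and a median of -0.38. Without siPARP2_A it had 6 higher and 45 lower members and a median of -0.95, and without siPARP1_A 1 higher and 49 lower members and a median of -1.15. Against siNC, with shared control libraries, the median of the list was -1.19 with siPARP2_A, -1.48 with siPARP2_B, -0.86 with siPARP1_A and -0.03 with siPARP1_B, so that siPARP1_A was low as well and siPARP1_B was near the control. Of the androgen-induced genes limma called 0 higher and 19 lower with target as the group, beside 6% and 5.87% of all genes. With the sequence as a random block it called 0 and 2 (1 and 30 at an unadjusted p under 0.05). The 3 members that rose were ACPP, prostatic acid phosphatase (1.38, 2.09 without siPARP2_A, 0.67 without siPARP2_B, 0.81 without siPARP1_A), TARP, a transcript within the T cell receptor gamma locus (0.59, 2.1 without siPARP2_A, -0.93 without siPARP2_B, -0.02 without siPARP1_A, 1.19 without siPARP1_B), and the prostaglandin receptor PTGER4 (0.25, 0.99 without siPARP2_A, -0.49 without siPARP2_B), and each overlapped between the targets. PTGER4 did not pass without replicate 1 of siPARP1_B (0.218, adjusted p = 0.0692) or replicate 1 of siPARP2_B (0.199, adjusted p = 0.101). ACPP had 22.9 and 24.7 with siPARP2_A and 68.8 and 62.5 with siPARP2_B, against 9.67 and 9.37 with siPARP1_A and 20.9 and 23.4 with siPARP1_B. All of these lay below the control, which had 104 and 99.2.

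The 250 bases before the start of KLK3 (RefSeq, GRCh38.p14, chr19:50854665-50854914 on the forward strand) are shown because KLK3 is the androgen-induced member in whose window the androgen response half-site AGAACA was found on either strand. Capitals mark the match.
KLK3: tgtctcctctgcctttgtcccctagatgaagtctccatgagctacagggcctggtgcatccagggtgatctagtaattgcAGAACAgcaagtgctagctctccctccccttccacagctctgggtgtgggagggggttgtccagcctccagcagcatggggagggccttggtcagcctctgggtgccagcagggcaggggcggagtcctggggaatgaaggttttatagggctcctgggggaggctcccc
The half-site was present in this window in 12.4% of all 27305 genes of the RefSeq table, counting the first start listed, in 7.2% of the tested genes with an entry, and in 1 of 38 androgen-induced members with an entry. It was present in 9.11% of the genes higher and 6.78% of those lower without overlap. A match describes these letters in this window alone.

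Of 16 transcription factors of luminal prostate cells, 10 fell and 3 rose with siPARP2, beside 32.2% and 33.3% of all genes, with a median of -0.52. In 8 of them the values were lower without overlap, beside 10.3% of all genes. FOXA1 had 109.8 and 121 with siPARP2_A and 148 and 183 with siPARP2_B, against 106 and 98.6 with siPARP1_A and 192 and 225 with siPARP1_B. It did not pass the test, with a difference of -0.08 (adjusted p = 0.251), or 0.17 without siPARP2_A, -0.34 without siPARP2_B, -0.59 without siPARP1_A and 0.43 without siPARP1_B. Without replicate 2 of siPARP2_B the FOXA1 difference was -0.157 and passed (adjusted p = 0.0187). SPDEF, an epithelial ETS factor, had 45.6 and 49 with siPARP2_A and 39.9 and 46.7 with siPARP2_B, against 87.4 and 84.4 with siPARP1_A and 130.1 and 126 with siPARP1_B. The control was higher still, with 161 and 155, and the difference was -1.20 (adjusted p = 2.48e-16). CREB3L4, another factor of this list, had 75.1 and 75.9 with siPARP2_A and 41.3 and 35.4 with siPARP2_B, against 124 and 118 with siPARP1_A and 151 and 147 with siPARP1_B, a difference of -1.30 (adjusted p = 2.48e-17), or -0.82 without siPARP2_B. The epithelial factors ELF3 (1.54, 2.62 without siPARP2_A, 0.46 without siPARP2_B, 0.87 without siPARP1_B), KLF5 (0.47, 0.97 without siPARP2_A, -0.02 without siPARP2_B, -0.40 without siPARP1_A, 1.35 without siPARP1_B) and HNF4G (0.43, 1.20 without siPARP2_A, -0.34 without siPARP2_B, 0.72 without siPARP1_A, 0.14 without siPARP1_B) rose, and all 3 overlapped between the targets. HNF4G did not pass without replicate 2 of siPARP1_B (0.328, adjusted p = 0.0547). In the luminal list leaving out siPARP2_A gave 5 higher and 9 lower members (median -0.74), siPARP2_B 2 and 11 (-0.35), siPARP1_A 2 and 12 (-0.56), and siPARP1_B 3 and 9 (-0.42). Of these factors limma called 0 higher and 5 lower with target as the group, and 0 and 0 with the sequence as a random block (1 and 8 at an unadjusted p under 0.05).

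Genes that androgen lowers were split. Of 23 tested, 11 rose and 9 fell, beside 33.3% and 32.2% of all genes, with a median of 0.18. The pair medians were -0.04 for siPARP2_A over siPARP1_A, 0.52 for siPARP2_A over siPARP1_B, -0.55 for siPARP2_B over siPARP1_A and 0.27 for siPARP2_B over siPARP1_B. PCDH11X, a protocadherin with a close copy on the Y chromosome, had 52 and 51.9 with siPARP2_A and 59.4 and 56.5 with siPARP2_B, against 9.49 and 7.64 with siPARP1_A and 22.4 and 24.6 with siPARP1_B. The targets did not overlap, and the difference was 1.87 (adjusted p = 1.34e-17), or 1.19 without siPARP1_A. ACKR3, a scavenging chemokine receptor, had 148 and 148 with siPARP2_A and 124 and 113 with siPARP2_B, against 93.3 and 104 with siPARP1_A and 42.4 and 43.3 with siPARP1_B. Here too the targets did not overlap, and the difference was 1.01 (adjusted p = 2.54e-15), or 1.61 without siPARP1_A and 0.42 without siPARP1_B. UGT2B17, an androgen-glucuronidating enzyme whose reads can be shared with its family, was 0.89 (adjusted p = 1.26e-14), or 0.20 without siPARP2_A and 1.58 without siPARP2_B. EFNA5, an ephrin that signals to Eph receptors on neighbouring cells, had 39.6 and 35.5 with siPARP2_A and 27.2 and 26.8 with siPARP2_B, against 123 and 122 with siPARP1_A and 77.7 and 81.7 with siPARP1_B, and the developmental factor TBX15 differed by -1.28 (adjusted p = 4.65e-11). PEG3, an imprinted zinc finger gene, had 545 and 515 with siPARP2_A and 27.8 and 26.5 with siPARP2_B, against 261 and 251 with siPARP1_A and 562 and 646 with siPARP1_B. The siPARP2_B values stood alone as low, and the difference was -1.69 (adjusted p = 4.14e-20), or -3.80 without siPARP2_A, 0.43 without siPARP2_B and -1.07 without siPARP1_B. Among the androgen-lowered genes leaving out siPARP2_A gave 8 higher and 10 lower members (median 0.13), siPARP2_B 14 and 6 (0.30), siPARP1_A 13 and 8 (0.40), and siPARP1_B 10 and 13 (-0.50), so that the sign of the median turned without siPARP1_B. Of this list limma called 3 higher and 3 lower with target as the group, and 0 and 1 with the sequence as a random block (5 and 6 at an unadjusted p under 0.05).

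Genes of fatty acid synthesis were lower with siPARP2 as well. Of 20 tested, 16 fell and 2 rose, beside 32.2% and 33.3% of all genes, with a median of -0.67. In all 4 pairings 8 were called lower, beside 5.84% of all genes. The pair medians were -0.29 for siPARP2_A over siPARP1_A, -0.65 for siPARP2_A over siPARP1_B, -0.70 for siPARP2_B over siPARP1_A and -0.84 for siPARP2_B over siPARP1_B. FASN, the fatty acid synthase, had 87 and 71.7 with siPARP2_A and 45.4 and 59.1 with siPARP2_B, against 162 and 139.5 with siPARP1_A and 186 and 172 with siPARP1_B. The siPARP2 values lay below the control and the siPARP1 values above it, with 97.1 and 119. Its difference was -1.34 ± 0.07 (SE, limma adjusted p = 4.29e-14). ELOVL5, an elongase of polyunsaturated fatty acids, had 470.2 and 470.5 with siPARP2_A and 287 and 283 with siPARP2_B, against 887 and 907 with siPARP1_A and 846 and 906 with siPARP1_B. All of these lay below the control, which had 1290.0 and 1220.0. The difference was -1.27 ± 0.04 (SE, limma adjusted p = 6.46e-19). THRSP, described above by rank, had the largest decrease of the list. The 2 members that rose were the elongase ELOVL6 (0.32, 0.12 without siPARP1_A, 0.51 without siPARP1_B) and the ketoacyl reductase HSD17B12 (0.29). ELOVL6 had 70.6 and 72.5 with siPARP2_A and 67 and 64.4 with siPARP2_B, against 48.1 and 47.3 with siPARP1_A and 62.3 and 63.7 with siPARP1_B. In the fatty acid list leaving out siPARP2_A gave 2 higher and 16 lower members (median -0.76), siPARP2_B 3 and 13 (-0.34), siPARP1_A 2 and 16 (-0.78), and siPARP1_B 3 and 14 (-0.54). Of these genes limma called 0 higher and 8 lower with target as the group, and 0 and 1 with the sequence as a random block (0 and 12 at an unadjusted p under 0.05).

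Cholesterol synthesis and uptake showed a smaller shift. Of 23 genes 17 fell and 3 rose, beside 32.2% and 33.3% of all genes, with a median of -0.33. The pair medians were -0.09 for siPARP2_A over siPARP1_A, -0.62 for siPARP2_A over siPARP1_B, -0.15 for siPARP2_B over siPARP1_A and -0.58 for siPARP2_B over siPARP1_B. FDPS, which makes farnesyl diphosphate, had 54.6 and 60.2 with siPARP2_A and 46.2 and 46.1 with siPARP2_B, against 97.1 and 96.3 with siPARP1_A and 73.1 and 69.2 with siPARP1_B, a difference of -0.68 (adjusted p = 5.8e-12). DHCR7, the enzyme of a last step to cholesterol, was -0.73 (adjusted p = 4.66e-14), or -1.29 without siPARP2_A and -0.17 without siPARP2_B but overlapped, since siPARP2_A had 174 and 184 and siPARP1_A 178 and 178. MSMO1, a sterol demethylase, had 182 and 174 with siPARP2_A and 202 and 207 with siPARP2_B, against 95.1 and 109 with siPARP1_A and 117 and 114 with siPARP1_B. It rose by 0.81 (adjusted p = 3.77e-14), and the sterol reductase TM7SF2 rose by 0.46. INSIG1, which retains the sterol sensor SCAP, was 0.16 (adjusted p = 0.000814), or 0.61 without siPARP2_A, -0.28 without siPARP2_B, -0.26 without siPARP1_A and 0.58 without siPARP1_B. In the cholesterol list leaving out siPARP2_A gave 5 higher and 14 lower members (median -0.31), siPARP2_B 3 and 17 (-0.30), siPARP1_A 2 and 19 (-0.54), and siPARP1_B 5 and 10 (-0.05), so that little of the median was left without siPARP1_B. Of the sterol genes limma called 2 higher and 6 lower with target as the group, and 0 and 0 with the sequence as a random block (2 and 8 at an unadjusted p under 0.05).

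Nuclear genes of oxidative phosphorylation, the complexes of the mitochondrial respiratory chain, were higher with siPARP2 by small amounts. Of 53 tested, 43 rose and 3 fell, beside 33.3% and 32.2% of all genes, with a median of 0.29. Without overlap 24 were higher and 0 lower, beside 11.8% and 10.3% of all genes. The pair medians were 0.20 for siPARP2_A over siPARP1_A, 0.50 for siPARP2_A over siPARP1_B, 0.07 for siPARP2_B over siPARP1_A and 0.33 for siPARP2_B over siPARP1_B, so the shift was larger against siPARP1_B. UQCRC2, a core subunit of complex III, had 642 and 671 with siPARP2_A and 482 and 476 with siPARP2_B, against 195 and 199 with siPARP1_A and 425 and 416 with siPARP1_B. The siPARP1_A values were the lowest, the control had 526 and 498, and the difference was 0.96 ± 0.04 (SE, limma adjusted p = 7.71e-17), or 0.41 without siPARP1_A and 1.5 without siPARP1_B. SDHB, the iron-sulfur subunit of complex II, had 136 and 148 with siPARP2_A and 124 and 119 with siPARP2_B, against 87.5 and 86.7 with siPARP1_A and 88.3 and 84.9 with siPARP1_B. The siPARP1 values were at the control level (90.1 and 87.2) and the siPARP2 values above it. The difference was 0.59 ± 0.04 (SE, limma adjusted p = 1.33e-11). NDUFV1, which binds NADH in complex I, had 228 and 223 with siPARP2_A and 284 and 295 with siPARP2_B, against 157 and 156 with siPARP1_A and 199 and 184 with siPARP1_B, a difference of 0.56 (adjusted p = 3.68e-11). The members that fell, NDUFC1 (-0.21, -0.42 without siPARP2_A, 0.00 without siPARP2_B), NDUFB5 (-0.14, -0.08 without siPARP2_A, -0.02 without siPARP1_A, -0.27 without siPARP1_B) and SDHA (-0.11, -0.26 without siPARP2_A, 0.03 without siPARP2_B, 0.02 without siPARP1_A, -0.24 without siPARP1_B), overlapped between the targets. NDUFB5 did not pass without replicate 2 of siPARP1_A (-0.105, adjusted p = 0.0781) or replicate 1 of siPARP1_B (-0.104, adjusted p = 0.0734). SDHA did not pass without replicate 1 of siPARP2_A, replicate 1 of siPARP2_B, replicate 1 of siPARP1_A or replicate 2 of siPARP1_B, with -0.107 to -0.092 (adjusted p = 0.0602 to 0.0946). Against siNC the median of the list was 0.14 with siPARP2 and -0.14 with siPARP1. In the respiratory list leaving out siPARP2_A gave 32 higher and 10 lower members (median 0.21), siPARP2_B 47 and 1 (0.37), siPARP1_A 48 and 1 (0.40), and siPARP1_B 30 and 8 (0.16). In this list limma called 11 higher and 0 lower with target as the group, and 0 and 0 with the sequence as a random block (9 and 0 at an unadjusted p under 0.05).

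**Figure D4:**
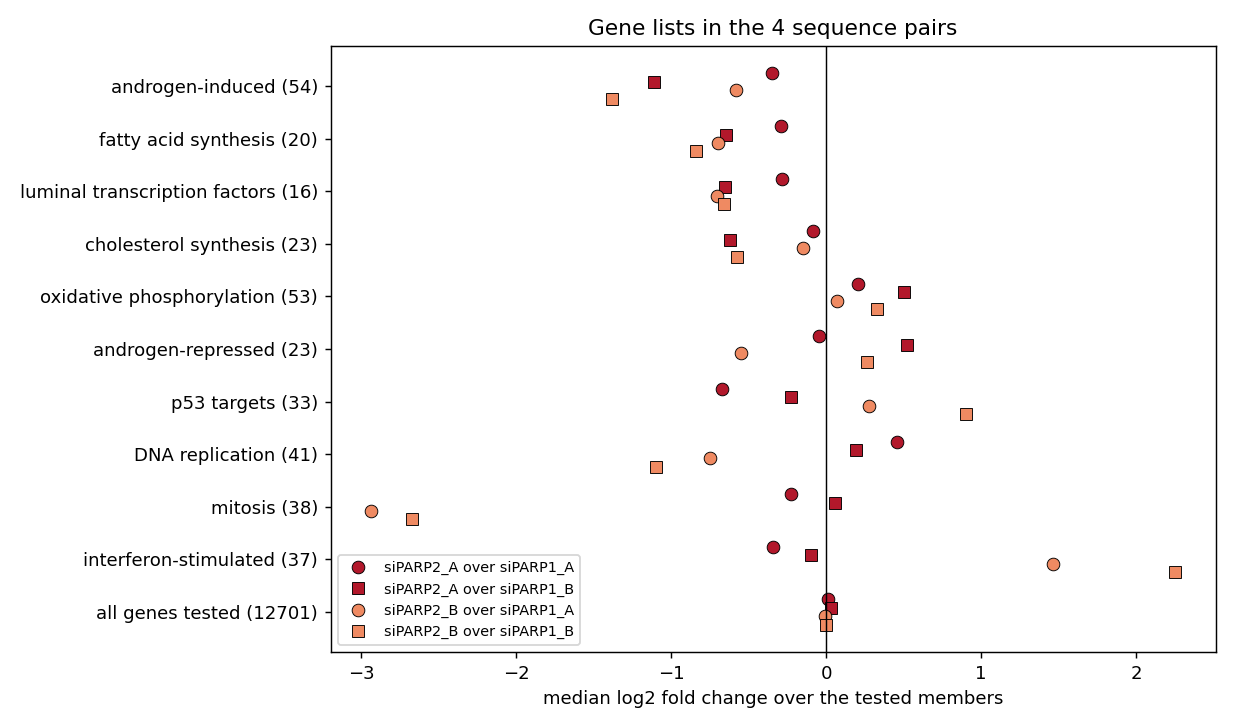
Median log2 fold change over the tested members of each gene list (number in parentheses) in the 4 sequence pairs, siPARP2 over siPARP1. Androgen-induced, fatty acid, luminal factor and cholesterol lists are below 0 and oxidative phosphorylation above 0 in all 4 pairs, while the mitosis, DNA replication and interferon lists differ between pairs with siPARP2_A and pairs with siPARP2_B.

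Several gene groups had large medians with siPARP2_B and small ones with siPARP2_A. All 38 mitotic genes tested fell, beside 32.2% of all genes, with a median of -1.39, but the pair medians were -0.22 for siPARP2_A over siPARP1_A, 0.06 for siPARP2_A over siPARP1_B, -2.94 for siPARP2_B over siPARP1_A and -2.67 for siPARP2_B over siPARP1_B. In the mitotic list leaving out siPARP2_A gave 0 higher and 38 lower members (median -2.83), siPARP2_B 8 and 11 (-0.04), siPARP1_A 0 and 36 (-1.27), and siPARP1_B 0 and 38 (-1.53). Of the mitotic genes limma called 0 higher and 2 lower with target as the group, and 0 and 0 with the sequence as a random block (0 and 26 at an unadjusted p under 0.05). TOP2A, the topoisomerase that untangles chromosomes, had 73.7 and 74.8 with siPARP2_A and 5.0 and 4.0 with siPARP2_B, against 113 and 108 with siPARP1_A and 81.7 and 91 with siPARP1_B. The siPARP2_B values stood far below all others, siNC included (87.8 and 84.9). The TOP2A difference was -2.28 (adjusted p = 1.74e-20), or -4.17 without siPARP2_A and -0.39 without siPARP2_B. CENPF, a kinetochore protein, had 42.1 and 35.3 with siPARP2_A and 7.14 and 6.14 with siPARP2_B, against 75.2 and 67.7 with siPARP1_A and 60.9 and 74.3 with siPARP1_B. Its difference was -2.02 (adjusted p = 5.43e-18), or -3.20 without siPARP2_A and -0.83 without siPARP2_B. MKI67, the proliferation antigen Ki-67, had 7.58 and 4.0 with siPARP2_A and 0.476 and 0.733 with siPARP2_B, against 11.1 and 12.5 with siPARP1_A and 12.4 and 9.88 with siPARP1_B. Its difference was -1.94 (adjusted p = 1.37e-11), or -2.96 without siPARP2_A and -0.92 without siPARP2_B. All 3 were lower without overlap, as were 10 genes of the list, beside 10.3% of all genes, and 5 of the list were called lower in all 4 pairings, beside 5.84%.

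The windows before TOP2A (chr17:40417897-40418146 on the reverse strand), MKI67 (chr10:128126424-128126673 on the reverse strand) and HMMR (chr5:163460382-163460631 on the forward strand), all from RefSeq, GRCh38.p14, are shown because mitotic genes moved together with siPARP2_B. HMMR encodes a hyaluronan receptor of the spindle and differed by -1.87, -3.23 without siPARP2_A, -0.52 without siPARP2_B. The capitals mark the core TTTGAA of the cell cycle homology region, searched on both strands, so that TTCAAA is a match on the other strand and joined capitals in HMMR are neighbouring matches.
TOP2A: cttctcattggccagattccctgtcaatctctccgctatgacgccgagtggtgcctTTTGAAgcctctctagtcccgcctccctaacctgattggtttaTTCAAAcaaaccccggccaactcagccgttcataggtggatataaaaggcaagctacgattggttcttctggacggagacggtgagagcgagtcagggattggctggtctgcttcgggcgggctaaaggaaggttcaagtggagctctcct
MKI67: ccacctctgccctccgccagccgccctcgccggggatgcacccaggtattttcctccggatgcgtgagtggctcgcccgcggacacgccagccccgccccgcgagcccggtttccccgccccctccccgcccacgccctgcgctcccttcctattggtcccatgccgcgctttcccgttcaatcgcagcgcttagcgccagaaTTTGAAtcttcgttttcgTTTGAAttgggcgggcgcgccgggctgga
HMMR: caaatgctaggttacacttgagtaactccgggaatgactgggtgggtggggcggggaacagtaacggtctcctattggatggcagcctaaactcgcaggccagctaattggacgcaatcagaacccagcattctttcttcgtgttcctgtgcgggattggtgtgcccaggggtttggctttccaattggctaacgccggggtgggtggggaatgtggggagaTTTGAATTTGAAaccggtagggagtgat
The motif was found in 17 of 32 mitotic members with an entry (53.1%), and in 7 of the 9 among them that were lower without overlap. The share was 8.05% of the tested genes with an entry and 13.6% of all 27305 genes. Among all genes without overlap it was 7.91% of the higher and 7.77% of the lower. These shares were not tested.

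DNA replication genes also depended on the siPARP2 sequence. Of 41 tested, 31 fell and 4 rose, beside 32.2% and 33.3% of all genes, with a median of -0.34, and the pair medians were 0.46 for siPARP2_A over siPARP1_A, 0.19 for siPARP2_A over siPARP1_B, -0.75 for siPARP2_B over siPARP1_A and -1.10 for siPARP2_B over siPARP1_B. In the replication list leaving out siPARP2_A gave 1 higher and 34 lower members (median -0.92), siPARP2_B 30 and 2 (0.36), siPARP1_A 1 and 33 (-0.48), and siPARP1_B 7 and 19 (-0.19). Of the list 2 members were lower without overlap, beside 10.3% of all genes. Of the replication genes limma called 0 higher and 1 lower with target as the group, and 0 and 0 with the sequence as a random block (0 and 1 at an unadjusted p under 0.05). RRM2, a subunit of ribonucleotide reductase, had 82.8 and 84.4 with siPARP2_A and 6.01 and 5.18 with siPARP2_B, against 61.8 and 62.1 with siPARP1_A and 71.9 and 66.9 with siPARP1_B. Its difference was -1.5 (adjusted p = 1.52e-17), or -3.34 without siPARP2_A and 0.35 without siPARP2_B. CDC45, a factor of the replicative helicase, had 18.9 and 21.3 with siPARP2_A and 1.61 and 1.13 with siPARP2_B, against 15.4 and 11.7 with siPARP1_A and 18.2 and 16.6 with siPARP1_B. Its difference was -1.21 (adjusted p = 4.77e-11), or -2.79 without siPARP2_A and 0.37 without siPARP2_B, and that of the thymidine kinase TK1 was -1.40 (adjusted p = 8.26e-18), or -2.81 without siPARP2_A and 0.02 without siPARP2_B. In RRM2 and CDC45 the siPARP2_B values were low and the siPARP2_A values were above all siPARP1 values. RPA2, a subunit of the single-strand binding protein RPA, had 80 and 84.4 with siPARP2_A and 84.4 and 79.5 with siPARP2_B, against 50.7 and 51.5 with siPARP1_A and 79.8 and 78.3 with siPARP1_B. The siPARP1_A values stood alone as low, and the difference was 0.36 (adjusted p = 1.36e-07), or 0.05 without siPARP1_A and 0.67 without siPARP1_B. The cyclin CCNE2 differed by 0.39 (adjusted p = 1.26e-05), or 0.00 without siPARP2_A, 0.79 without siPARP2_B, 0.13 without siPARP1_A and 0.65 without siPARP1_B, and the primase subunit PRIM2 differed by 0.26 (adjusted p = 0.00191), or -0.10 without siPARP2_A, 0.62 without siPARP2_B, -0.05 without siPARP1_A and 0.56 without siPARP1_B.

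Interferon-stimulated genes and sensors of viral RNA were high with siPARP2_B. Of 37 tested, 31 rose and 1 fell, beside 33.3% and 32.2% of all genes, with a median of 0.74, and the pair medians were -0.34 for siPARP2_A over siPARP1_A, -0.10 for siPARP2_A over siPARP1_B, 1.46 for siPARP2_B over siPARP1_A and 2.25 for siPARP2_B over siPARP1_B. In the interferon list leaving out siPARP2_A gave 36 higher and 0 lower members (median 1.83), siPARP2_B 7 and 19 (-0.25), siPARP1_A 31 and 0 (1.01), and siPARP1_B 24 and 5 (0.58). Of the interferon-stimulated genes limma called 1 higher and 0 lower with target as the group, and 0 and 0 with the sequence as a random block (14 and 0 at an unadjusted p under 0.05). RSAD2, the antiviral enzyme viperin, had 1.22 and 0.938 with siPARP2_A and 223 and 223 with siPARP2_B, against 1.57 and 1.91 with siPARP1_A and 0.666 and 0.553 with siPARP1_B. Its difference was 3.36 (adjusted p = 5.08e-19), or 6.74 without siPARP2_A and -0.01 without siPARP2_B. IFIT2, which binds viral RNA, had 2.45 and 3.75 with siPARP2_A and 466 and 480.1 with siPARP2_B, against 3.93 and 3.5 with siPARP1_A and 3.4 and 3.25 with siPARP1_B. Its difference was 3.28 (adjusted p = 1.47e-19), or 6.71 without siPARP2_A and -0.16 without siPARP2_B. OASL, of the oligoadenylate synthetase family, had 3.119 and 2.44 with siPARP2_A and 445 and 484 with siPARP2_B, against 4.78 and 3.5 with siPARP1_A and 3.86 and 2.49 with siPARP1_B. Its difference was 3.19 (adjusted p = 2.78e-18), or 6.67 without siPARP2_A and -0.28 without siPARP2_B. For these 3 genes siPARP2_B stood alone, and the siPARP2_A values lay within the siPARP1 range or below it. OAS3, which makes the second messenger of RNase L, was the member that fell, with a difference of -0.31 (adjusted p = 0.00171), or 0.58 without siPARP2_A, -1.20 without siPARP2_B, 0.14 without siPARP1_A and -0.76 without siPARP1_B. Of the list 4 members were higher without overlap, beside 11.8% of all genes, so the list did not stand out by that rule. They included ISG15, IRF7 and USP18, named after their values were seen. ISG15 alone of them was called higher in all 4 pairings, beside 6.53% of all genes. ISG15, a ubiquitin-like modifier, had 62.8 and 61.9 with siPARP2_A and 408 and 433 with siPARP2_B, against 27.4 and 29.9 with siPARP1_A and 43.5 and 44.4 with siPARP1_B. The siPARP2_A values were close to the control (57.1 and 61.1), and the siPARP1 values were below it. The ISG15 difference was 2.16 ± 0.05 (SE, limma adjusted p = 1.11e-21), or 3.53 without siPARP2_A and 0.80 without siPARP2_B.

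The window before ISG15 (RefSeq, GRCh38.p14, chr1:1013247-1013496 on the forward strand) is shown because ISG15 was the interferon-stimulated gene called with both siPARP2 sequences. The capitals mark overlapping matches to the core of the interferon-stimulated response element, searched on both strands as GAAA, any 2 bases and GAAA.
ISG15: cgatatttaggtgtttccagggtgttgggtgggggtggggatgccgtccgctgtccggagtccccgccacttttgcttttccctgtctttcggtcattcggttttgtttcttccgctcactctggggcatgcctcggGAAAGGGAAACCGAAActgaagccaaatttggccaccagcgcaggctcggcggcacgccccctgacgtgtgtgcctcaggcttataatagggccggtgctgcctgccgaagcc
The motif was in 14 of 28 members of the interferon list with an entry (50%), against 2.27% of the tested genes with an entry and 3.07% of all 27305 genes. Among genes without overlap its share was 2.15% of the higher and 1.42% of the lower.

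Genes raised by p53, a transcription factor of the DNA damage response, were split, with counts not far from those of all genes. Of 33 tested, 12 rose and 14 fell, beside 33.3% and 32.2% of all genes, with a median of 0.02, and the pair medians were -0.67 for siPARP2_A over siPARP1_A, -0.22 for siPARP2_A over siPARP1_B, 0.28 for siPARP2_B over siPARP1_A and 0.90 for siPARP2_B over siPARP1_B. CDKN1A, the cell cycle inhibitor p21, had 166 and 186 with siPARP2_A and 1346 and 1389 with siPARP2_B, against 817 and 853 with siPARP1_A and 148 and 137 with siPARP1_B. It was high with siPARP2_B and siPARP1_A and low with siPARP2_A and siPARP1_B, on either side of the control (333 and 369.6). Its difference was 0.51 (adjusted p = 4.38e-10), or 1.98 without siPARP2_A, -0.97 without siPARP2_B, 1.78 without siPARP1_A and -0.77 without siPARP1_B. GDF15, a stress-induced cytokine, had 146 and 161 with siPARP2_A and 756 and 934 with siPARP2_B, against 144 and 141 with siPARP1_A and 88.9 and 87.7 with siPARP1_B. Its siPARP2_B values stood out as high, and the difference was 1.67 (adjusted p = 1.57e-18), or 2.89 without siPARP2_A and 0.45 without siPARP2_B. FBXO22, a ubiquitin ligase subunit, differed by 0.57, 0.30 without siPARP2_B, and TIGAR, a regulator of glycolysis, by 0.54, 1.13 without siPARP2_A, -0.05 without siPARP2_B. SESN1, a sestrin, had 68.3 and 70.2 with siPARP2_A and 58 and 58.5 with siPARP2_B, against 144 and 156 with siPARP1_A and 90.7 and 93 with siPARP1_B. It fell without overlap, and its difference was -0.88 (adjusted p = 1.33e-14), or -0.53 without siPARP1_A. The cyclin CCNG1 had a difference of -0.70, -0.44 without siPARP2_B. MDM2, the ubiquitin ligase of p53, had 65.8 and 64.3 with siPARP2_A and 64.7 and 61.4 with siPARP2_B, against 172 and 184 with siPARP1_A and 64.5 and 73.6 with siPARP1_B. The siPARP1_A values stood alone as high, and the difference was -0.78 (adjusted p = 4.59e-13), or -0.10 without siPARP1_A and -1.46 without siPARP1_B. In the p53 list leaving out siPARP2_A gave 23 higher and 5 lower members (median 0.66), siPARP2_B 2 and 27 (-0.46), siPARP1_A 19 and 7 (0.28), and siPARP1_B 7 and 18 (-0.34). Of the p53 targets limma called 1 higher and 3 lower with target as the group, and 0 and 0 with the sequence as a random block (2 and 4 at an unadjusted p under 0.05). MYC, a transcription factor of growth, did not pass the test, with a difference of -0.06 (adjusted p = 0.24), or -0.40 without siPARP2_A, 0.28 without siPARP2_B and -0.03 without siPARP1_A.

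Other members of the PARP family had no common direction. Of 15 tested, 5 rose and 8 fell, the targets included, beside 33.3% and 32.2% of all genes, with a median of -0.15. The median ran from -0.20 without siPARP2_B to 0.29 without siPARP2_A. Of the family limma called 2 higher and 2 lower with target as the group, and 1 and 1 with the sequence as a random block (2 and 1 at an unadjusted p under 0.05). PARP8 had 10.7 and 12.4 with siPARP2_A and 24.7 and 24.8 with siPARP2_B, against 6.65 and 6.56 with siPARP1_A and 7.53 and 6.98 with siPARP1_B. The targets did not overlap, and the difference was 1.18 ± 0.08 (SE, limma adjusted p = 4.5e-12), or 0.66 without siPARP2_B. PARP10, a mono-ADP-ribosyltransferase, had 18.7 and 20.1 with siPARP2_A and 17.9 and 24.1 with siPARP2_B, against 34.3 and 29.8 with siPARP1_A and 28.2 and 29.8 with siPARP1_B. These values did not overlap either, and the difference was -0.58 (adjusted p = 4.27e-07). PARP4, the vault-associated member (0.49, 0.85 without siPARP2_A, 0.14 without siPARP2_B, 0.28 without siPARP1_B), and PARP11 (-0.42, -0.72 without siPARP2_A, -0.12 without siPARP2_B) overlapped between the targets.

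The remaining lists are given by their counts beside the 33.3% higher and 32.2% lower of all genes, with the lowest and highest median when a sequence was left out. A median that ran from below 0 to above 0 has a direction that depends on the sequences. Homologous recombination and Fanconi genes had 5 of 34 members higher and 19 lower with a median of -0.26, which ran from -0.50 without siPARP2_A to 0.25 without siPARP2_B. Base excision and single-strand break repair had 8 of 23 members higher and 5 lower with a median of 0.04, from -0.12 without siPARP2_A to 0.31 without siPARP2_B. NAD supply with ADP-ribose removal had 11 of 21 members higher and 6 lower with a median of 0.13, from 0.13 without siPARP1_A to 0.26 without siPARP1_B. Cytosolic ribosomal proteins had 13 of 52 members higher and 5 lower with a median of 0.01, which ran from -0.21 without siPARP2_A to 0.26 without siPARP2_B. MYC and ribosome biogenesis factors had 14 of 27 members higher and 4 lower with a median of 0.13, from -0.14 without siPARP2_A to 0.32 without siPARP2_B, with 5 higher and 14 lower members without siPARP2_A. The ID genes with TGF-beta and BMP feedback had 6 of 18 members higher and 9 lower with a median of -0.12, from -0.55 without siPARP1_A to 0.26 without siPARP1_B, and 5 of these were lower without overlap, beside 10.3% of all genes. Without siPARP1_B 9 of them were higher and 6 lower. The unfolded protein and integrated stress response had 10 of 34 members higher and 16 lower with a median of -0.04, from -0.24 without siPARP1_A to -0.01 without siPARP2_B. NRF2 targets had 11 of 24 members higher and 6 lower with a median of 0.09, from -0.21 without siPARP1_B to 0.28 without siPARP2_A, and -0.09 without siPARP2_B. Glycolysis and hypoxia genes had 10 of 29 members higher and 10 lower with a median of 0.04, from -0.06 without siPARP1_B to 0.17 without siPARP2_B. NF-kB with AP-1 genes had 9 of 18 members higher and 1 lower with a median of 0.16, from 0.04 without siPARP2_B to 0.52 without siPARP2_A. Junction and mesenchymal genes had 6 of 17 members higher and 7 lower with a median of 0.03, from 0.00 without siPARP1_A to 0.29 without siPARP1_B. Histone genes had 8 of 14 members higher and 3 lower with a median of 0.20, from -0.02 without siPARP2_B to 0.49 without siPARP2_A. The small RNA machinery had 5 of 13 members higher and 4 lower with a median of -0.01, from -0.06 without siPARP2_A to 0.05 without siPARP2_B. The luminal markers, which share members with the androgen-induced list, had 3 of 13 members higher and 9 lower with a median of -0.57, from -0.91 without siPARP1_A to -0.09 without siPARP1_B, where 5 were higher and 5 lower. With the sequence as a random block limma called 1 luminal marker lower, and no member of the other lists of this paragraph, at an adjusted p under 0.05. At an unadjusted p under 0.05 they held 0 to 3 higher and 0 to 5 lower members each. Of the markers of other cell types, 1 of 1 basal, 1 of 2 neuroendocrine, 2 of 4 stromal and 1 of 1 immune or endothelial markers tested were higher. Among them 1 neuroendocrine and 1 stromal marker were lower. The summed levels of these marker lists were 36.2 to 38.3 nRPM with siPARP2 and 27.6 to 32.5 with siPARP1 for the basal, 15.7 to 19.4 and 6.05 to 15.8 for the neuroendocrine, 3.81 to 13.6 and 4.01 to 10.7 for the stromal, and 1.77 to 8.56 and 0.967 to 3.75 for the immune and endothelial markers. Their part in the gene differences was not tested.

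The inhibitor libraries, which the choice of genes did not use, were tested as a table of their own. Olaparib and veliparib inhibit both PARP1 and PARP2, and UPF1069 is known as a PARP2-preferring inhibitor. There, of all genes tested, 25.8% were called higher and 26.8% lower with olaparib than with DMSO, 10.3% higher and 14% lower with UPF1069, and 17.2% higher and 23.2% lower with veliparib. Of the 1490 genes higher without overlap that were also tested there, 562 (37.7%) were higher and 283 (19%) lower with olaparib, against 27.1% and 27.3% of the 12275 genes tested in both tables. Of the 1249 genes lower without overlap, 230 (18.4%) were higher and 506 (40.5%) lower with olaparib. The median olaparib difference was 0.07 for the higher and -0.08 for the lower genes on the log2 scale, against 0.01 for all genes in both tables. With UPF1069, 9.93% of the higher genes were higher and 15.8% lower, and 10.1% of the lower genes were higher and 18.7% lower, against 10.4% and 14.8% of all genes. With veliparib, 19.3% of the higher genes were higher and 21.9% lower, and 18.1% of the lower genes were higher and 25.3% lower, against 18.2% and 23.9%. These shares were not tested against each other.

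Single genes spanned a wide range in the inhibitor table. KLK2 was -4.55 (adjusted p = 6.69e-26) with olaparib and -0.14 (adjusted p = 0.0333) with UPF1069, each against DMSO. KLK3 was -2.99 (adjusted p = 5.94e-24) with olaparib and -0.19 (adjusted p = 0.00102) with UPF1069. CCDC141 was -2.68 (adjusted p = 2.82e-15) with olaparib and -0.59 (adjusted p = 0.000267) with UPF1069. ELOVL5 was -1.30 (adjusted p = 2.01e-17) with olaparib and -0.06 (adjusted p = 0.309) with UPF1069. SOCS2, lower with both siPARP2 sequences, was 0.17 (adjusted p = 0.0807) with olaparib and 0.21 (adjusted p = 0.0547) with UPF1069. Among the higher genes, MAN1A1 was 1.95 (adjusted p = 2.23e-12) with olaparib and 0.48 (adjusted p = 0.00341) with UPF1069, and SIPA1L2 was -1.04 (adjusted p = 1.3e-12) with olaparib and 0.62 (adjusted p = 4.62e-08) with UPF1069. MAPK14 was 0.07 (adjusted p = 0.218), VPS4B 0.09 (adjusted p = 0.152) and CARNMT1 0.09 (adjusted p = 0.32) with olaparib, and none of these 3 passed the test. With veliparib against DMSO, KLK2 was -0.19 (adjusted p = 0.00251), KLK3 -0.23 (adjusted p = 9.03e-05) and CCDC141 0.22 (adjusted p = 0.106). SOCS2 was 0.13 (adjusted p = 0.217), MAN1A1 0.125 (adjusted p = 0.402) and SIPA1L2 0.27 (adjusted p = 0.000739) with veliparib. The genes of this paragraph were picked by their siRNA values.

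**Figure D5:**
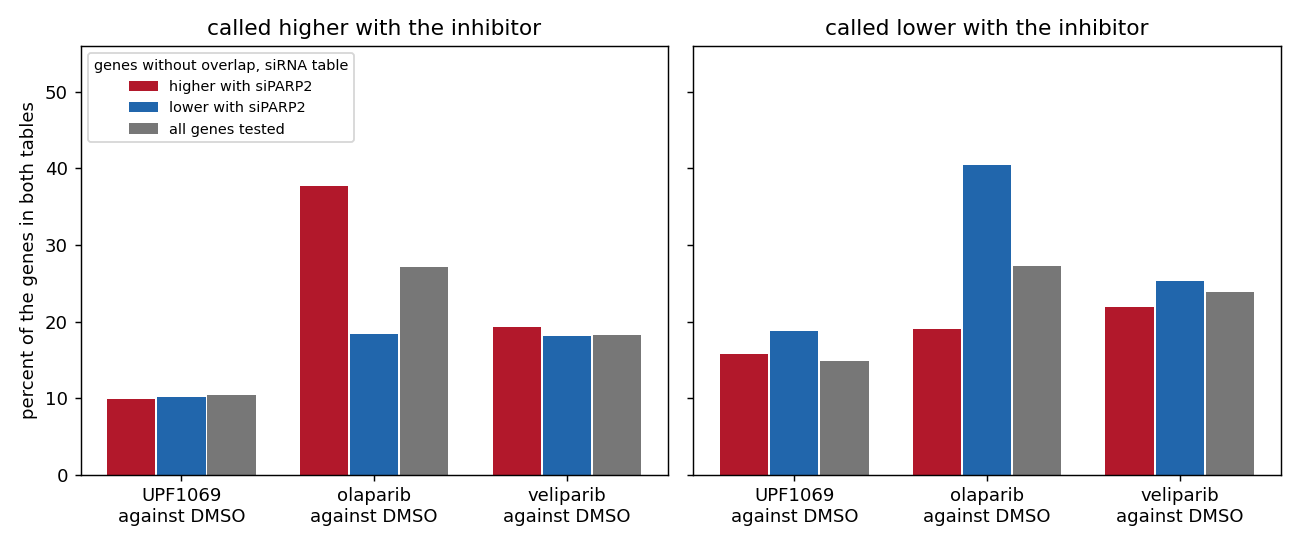
Percent of genes called higher (left) and lower (right) with each inhibitor against DMSO, for genes higher (red) and lower (blue) with siPARP2 without overlap and for all genes tested in both tables (grey). With olaparib the red bar (37.7%) exceeds the grey (27.1%) on the left and the blue bar (40.5%) exceeds the grey (27.3%) on the right, and with UPF1069 and veliparib the bars lie nearer the grey ones.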

How the data were processed

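RNA sequencing covered 18 LNCaP libraries, grouped by their labels. The series calls the 2 libraries of a group biological duplicates, and p-values measure the spread between them. The authors deposited a normalised signal per gene, and dividing it by the smallest step of its library returned whole reads for 100% of non-zero entries (tolerance 0.01). Tools listed without a role in the submitters' processing notes are edgeR 3.12.0, HTSeq 0.6.1, TopHat2 2.1.0 and bcl2fastq 2.18, with build hg19. Whether strand was used in counting is not given in the sources used here. Depth was 15.45 to 18.62 M reads per siRNA library and 26.43 to 35.7 M per inhibitor library, and limits from 3 reads cover counting error only.

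The main test was limma 3.58.1 in R 4.3.3, trend method, 2-sided, on log2(value + 1), which understates changes of weakly expressed genes. All 5 siRNA groups entered 1 fit without covariates, limited to the 12701 genes whose mean reached 1 nRPM, with Benjamini-Hochberg adjustment over these genes and a threshold of 0.05. The contrast was the mean of siPARP2_A and siPARP2_B minus the mean of siPARP1_A and siPARP1_B. The method was tested on simulated data that held no difference between the sequences of a target, so that test does not cover the spread between sequences. The inhibitor table, normalised apart, was fitted apart. The design had been written for either counts or normalised values, and edgeR 4.0.16 (quasi-likelihood) and DESeq2 1.42.0 on the recovered reads, other scalings, filters and pseudocounts, and fits without each library or sequence were alternatives.

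The genes and the 29 lists were chosen with earlier results of these data known. Named genes were the targets, the 15 largest changes on each side called in all 4 pairings without overlap with a mean of at least 5 nRPM in the higher target, the 3 largest called changes per list and direction, a fixed panel that included FOXA1, KLK3, KLK2, TMPRSS2, FKBP5, CDKN1A, MYC and MKI67, and the 5 largest on each side that lay on opposite sides of siNC. CARNMT1, VPS4B, MAPK14, IDH1, GUCY1A3, KCNMA1, CADPS2, RAB27A, DNASE2B, DNAH5, DEFB132, HMMR, FOXN3, PHLDA2, SCML2, CDKN1C, SNAI2, LAMA1, SLC26A3, SHBG, IRF7, USP18, DRG1 and ZBTB48 were chosen after their values were seen. Some genes that these rules take in are not reported here. Symbols missing from the table for 3517 features were looked up by identifier, and 703 kept the identifier alone. Promoter sequences come from RefSeq (GRCh38.p14), another build than the files', and were matched by symbol. Spearman's rho across 12472 genes between the log2 difference and GC content was -0.0416, and with length -0.07.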

Additional observations from a re-analysis of the deposited data

Results flagged for a closer look

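Of 224 groups of 4 libraries examined for the named genes, 2 had a library far from the other 3. Chance flags about 1 in 20 groups when the 4 values are independent. Each group here joined 2 libraries of each of 2 sequences, so the count cannot be set against that rate. HSD17B12, a ketoacyl reductase of fatty acid elongation, had 199.9 and 199.7 with siPARP2_A and 194 and 199.7 with siPARP2_B, against 144 and 159 with siPARP1_A and 162 and 183 with siPARP1_B. The first siPARP2_B library lay below the other 3 siPARP2 libraries, with a gap of 0.96 of the range of the group. PHLDA2, an imprinted gene with a pleckstrin homology domain, had 28.9 and 32.7 with siPARP2_A and 39.2 and 55.3 with siPARP2_B, against 15.1 and 12.3 with siPARP1_A and 11.8 and 12 with siPARP1_B. The first siPARP1_A library lay above the other 3 siPARP1 libraries, with a gap of 0.862 of the range.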

How the results depend on the processing

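The calls between the targets held under other scalings, filters, pseudocounts and tools, and moved with the siRNA sequences. At an adjusted p under 0.05, edgeR called 4211 genes higher and 4066 lower, DESeq2 3749 and 3528, and scaling by library totals alone 4413 and 3882, against 4234 and 4090 with limma. With target as the group, 762 genes were higher and 745 lower. With the sequence as a random block these were 5 and 14 (consensus correlation 0.896), where 1330 genes had an unadjusted p under 0.05. The spread between sequences enters the error in those fits. The SE of the PARP1 difference was 0.052 in the main fit, 0.363 with target as the group and 0.365 with the random block. For PARP2 it was 0.097, 0.202 and 0.429. Genes without overlap numbered 3856 higher and 3917 lower without siPARP2_A, 3147 and 2517 without siPARP2_B, 3115 and 2775 without siPARP1_A, and 2950 and 2883 without siPARP1_B, since fewer values must separate. Leaving out each library in turn gave 3940 to 4277 genes higher and 3793 to 4107 lower, 1498 to 1767 higher and 1305 to 1540 lower without overlap, and log2 differences of 4.926 to 5.03 for PARP1 and -2.933 to -2.7 for PARP2. Replicate numbers did not pair the libraries (correlation of their deviations between groups -0.141 to 0.115), and with the replicate block 4201 genes were higher and 4059 lower. The median of all genes moved by at most 0.017 on the log2 scale in any setting.

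Of the 112 named genes followed, none turned with 1 library left out or under another scaling, filter, pseudocount or tool, and PTGER4 and HNF4G no longer passed with DESeq2. With target as the group 44 of them no longer passed, and with the sequence as a random block 91, among them MAN1A1 (adjusted p = 0.0775), FKBP5 (0.0511) and KLK3 (0.154). Leaving out 1 library ended 9 calls, in PTGER4, HNF4G, NDUFB5 and SDHA. Without a sequence, 29 values turned, and the cause was not tested. Without siPARP2_B the log2 differences were -0.972 for CDKN1A, 0.282 for MYC, -0.931 for TARP, -0.494 for PTGER4, 0.431 for PEG3, -0.023 for KLF5, -0.337 for HNF4G, 0.346 for RRM2, 0.023 for TK1, 0.371 for CDC45, -0.054 for TIGAR, -0.015 for RSAD2, -0.157 for IFIT2, -0.284 for OASL, -0.282 for INSIG1, 0.002 for NDUFC1 and 0.034 for SDHA. Without siPARP1_A they were -0.017 for TARP, -0.402 for KLF5, -0.051 for PRIM2, 0.144 for OAS3, -0.259 for INSIG1 and 0.022 for SDHA. Without siPARP2_A they were 0.175 for FOXA1, -0.003 for CCNE2, -0.102 for PRIM2 and 0.584 for OAS3, and without siPARP1_B 0.429 for FOXA1 and -0.766 for CDKN1A. Depth limits single genes near 3 reads, such as THRSP with siPARP2_B.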

Other observations

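Other genes differed at least 2-fold in all 4 pairings of a siPARP2 with a siPARP1 sequence, and a selection is given here, chosen after the values were seen. FOXN3, a forkhead repressor, had 27.6 and 24.6 with siPARP2_A and 40.6 and 39.8 with siPARP2_B, against 9.73 and 8.41 with siPARP1_A and 10.5 and 11.3 with siPARP1_B. The control, with 32.6 and 28.8, was among the siPARP2 values, and the difference was 1.61 (adjusted p = 6.31e-16). PHLDA2 had a control level of 15.1 and 18.3 and rose by 1.5 (adjusted p = 2.81e-13). SCML2, a Polycomb group protein, had 18.4 and 19.2 with siPARP2_A and 14 and 13.1 with siPARP2_B, against 4.9 and 5.35 with siPARP1_A and 5.2 and 5.87 with siPARP1_B. Its control had 14 and 11.1, and the difference was 1.42 (adjusted p = 3.47e-13).

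On the lower side, SNAI2, a zinc finger repressor of epithelial genes, had 3.49 and 3.81 with siPARP2_A and 4.4 and 3.27 with siPARP2_B, against 13.5 and 15.6 with siPARP1_A and 11.2 and 11.3 with siPARP1_B. The control, with 9.87 and 11.8, was near the siPARP1 values, and the difference was -1.54 (adjusted p = 5.76e-13). LAMA1, a laminin chain of basement membranes, had 2.57 and 3.56 with siPARP2_A and 4.4 and 3.21 with siPARP2_B, against 17.4 and 17.7 with siPARP1_A and 9.12 and 9.74 with siPARP1_B. Here the control, with 4.48 and 5.0, was near the siPARP2 values, and the difference was -1.67 (adjusted p = 4.87e-13). SLC26A3, a chloride and bicarbonate exchanger, had 1.04 and 0.625 with siPARP2_A and 0.535 and 0.564 with siPARP2_B, against 6.53 and 7.9 with siPARP1_A and 3.2 and 4.7 with siPARP1_B. The control was highest, with 8.12 and 8.04, and the difference was -1.91 (adjusted p = 6.38e-13). The cell cycle inhibitor CDKN1C differed by -1.17 (adjusted p = 7.81e-09) and the sex hormone carrier SHBG by -1.44 (adjusted p = 3.24e-10), both at levels under 10 nRPM in every siRNA library.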
